A study of Mus musculus with 2 samples.

Results

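The genes described here are 9 genes of the smooth muscle contractile apparatus, Acta2, Actg2, Myh11, Tagln, Myl9, Cnn1, Des, Synpo2 and Lmod1. They were chosen by name, and all 9 were listed among the 16381 genes of the colon table and the 18262 genes of the small intestine table. The study sorted stromal cells from mouse colon and small intestine and sequenced single-cell RNA from 1 droplet library of each tissue. Both tissues were healthy and untreated, and the labels give no strain, genotype, age, sex or number of animals. Digestion lasted 60 min for the colon and 45 min for the small intestine. Sorting then kept live cells lacking CD45 and CD326 (EpCAM), which removes immune and epithelial cells. The central comparison is between the cells the authors labelled SMCs (smooth muscle cells) and those labelled PDGFRa-high SEMFs (subepithelial myofibroblasts, the contractile fibroblasts beneath the epithelium).

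Smooth muscle shortens when myosin heads in thick filaments pull on actin thin filaments. Calcium and calmodulin switch on myosin light chain kinase, which phosphorylates the regulatory light chain, while actin-binding proteins set filament length and stability. The force passes through dense bodies and intermediate filaments to the cell membrane. Many of the genes are controlled by serum response factor with its coactivator myocardin, through a short promoter motif called the CArG box. Some, such as Acta2, are also used as markers of myofibroblasts, so a label of myofibroblast and a label of smooth muscle can share part of this gene set.

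The colon library held 6018 cells with a median of 6598 UMIs each (a UMI marks 1 captured RNA molecule), and the small intestine library 9359 cells with a median of 5943. SMCs made up 125 colon cells and 468 small intestinal cells, and SEMFs 1105 and 1109. The libraries shared 21 cell barcodes. Of the colon SMCs, 37 had UMIs of Xist but none that were Y-linked and 45 the reverse, so the colon library held cells of both sexes. With 1 library per tissue there is no replicate check, and tissue, animal, digestion time and library cannot be told apart. No test was therefore run, and all intervals below are 95% intervals that cover counting error only: exact Poisson for levels in CPM (the UMIs of the gene scaled to a common total of UMIs in the label), Clopper-Pearson for shares of cells, and exact conditional binomial for log2 ratios of CPM.

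Markers outside the 9 genes were checked first. Of 12 other smooth muscle genes, 11 had their highest level in SMCs in the colon and 8 in the small intestine, among the 6 labels with at least 50 cells in both libraries. Of all genes with at least 20 UMIs in these labels, 17.3% and 13.4% did. In the small intestine 2 of the 12 were highest in SEMFs and 2 in lymphatic endothelial cells. Hhip, a hedgehog-binding protein on that list, stood at 2522 CPM in colon SMCs against 13.9 CPM in SEMFs, and at 1088 and 7.05 CPM in the small intestine. Of 9 SEMF markers, 8 were highest in SEMFs in both libraries, and the share of all genes highest in SEMFs was not taken. Fibroblast transcripts were present in the small intestinal SMC label: 8 fibroblast markers summed to 22880 CPM there, against 7187 CPM in colon SMCs and 13812 CPM in small intestinal SEMFs. Adamdec1 alone stood at 9211 CPM in small intestinal SMCs and 2302 CPM in SEMFs. Of the 8 markers, 3 were more than 2-fold higher in these SMCs than in SEMFs, as were 9.03% of all genes. The other 5 were within 2-fold. None of those 8 was at 0 in small intestinal SMCs, and Pi16 was at 0 in colon SMCs. The part of these transcripts in the results was not tested.

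RefSeq promoter windows (GRCm38.p6) were available for 6 of the 9 genes, Acta2, Myl9, Cnn1, Des, Synpo2 and Lmod1, and the 250 bases before each start site were searched for the CArG box on both strands. An exact box was found in 1 of the 6, Myl9, and in 1.47% of all 32851 windows. With up to 1 base different, a setting chosen after the exact search, 3 of the 6 held boxes and each held 2, whereas 18.6% of all windows held at least 1 and 2.96% held 2 or more. The stretches around the boxes are shown because the motif is the one known for this gene set, with the boxes in capitals and the rest in lower case, 5′ to 3′ on the gene's strand.
Acta2, chr19:34255378-34255477, minus strand: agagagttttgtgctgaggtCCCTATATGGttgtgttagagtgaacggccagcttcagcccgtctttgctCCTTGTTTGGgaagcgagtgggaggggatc
Myl9, chr2:156775283-156775394, plus strand: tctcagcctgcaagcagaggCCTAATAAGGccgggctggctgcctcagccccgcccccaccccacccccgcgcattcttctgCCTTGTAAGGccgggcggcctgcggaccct
Lmod1, chr1:135324604-135324678, plus strand: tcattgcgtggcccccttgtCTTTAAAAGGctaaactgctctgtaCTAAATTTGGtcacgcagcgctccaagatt
The boxes began 84 and 34 bases before the start site in Acta2, 161 and 99 bases in Myl9, and 189 and 164 bases in Lmod1. These matches are a description of letters in a window. No box within 1 base was found in the windows of Cnn1, Des and Synpo2.

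All 9 genes had their highest level in SMCs in both libraries, where 17.3% of colon genes and 13.4% of small intestinal genes with at least 20 UMIs in these labels did. How the authors named the cells is not given in the sources used here. If genes of this set were used to name SMCs, that result follows in part from the label. The genes then parted by the label next in the order. Acta2, Tagln, Myl9, Myh11 and Synpo2 were next highest in SEMFs in both libraries, a pattern held by 5.93% of all genes in the colon and 4.79% in the small intestine. Actg2, Cnn1, Lmod1 and Des were low in SEMFs, at or under 21.3 CPM in each library, and another label was next in the order. This division into 5 and 4 genes was made after the values were seen. It is used to order the description and, in a later paragraph, for a count per cell. Neighbouring labels below SMCs often had overlapping intervals, such as for Cnn1 in the colon. There CD81- FBs (CD81-negative fibroblasts), trophocytes (CD81-positive fibroblasts), SEMFs, LECs (lymphatic endothelial cells) and BECs (blood endothelial cells) ran from 3.44 to 0 CPM. Each overlapped the next.

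**Figure D1:**
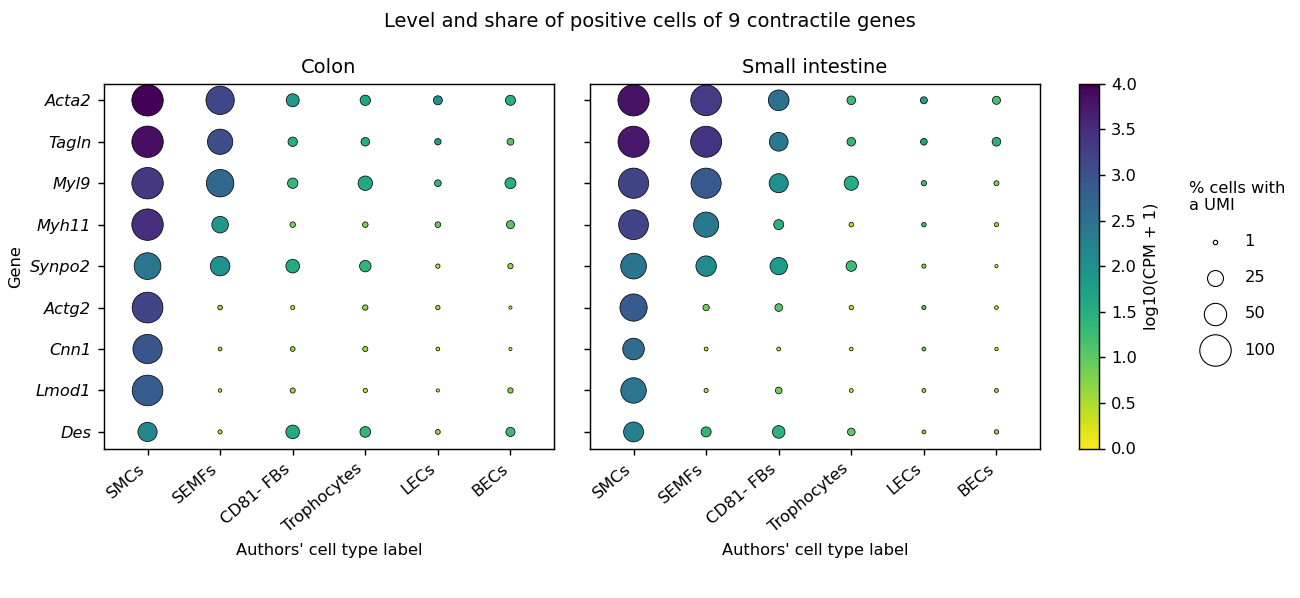
Level and share of positive cells of the 9 genes (rows) in the 6 labels (columns) of each library. Colour is log10 of CPM plus 1 and circle area grows with the percent of cells with at least 1 UMI. The first 5 rows show larger circles in SMCs and then SEMFs than in the other labels, and the last 4 rows show small circles in SEMFs (0.271% to 9.38% of cells).

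The thin filament actins differed most clearly in SEMFs. Acta2, smooth muscle alpha actin, stood at 9629 CPM (interval 9411 to 9850) in colon SMCs and 6336 CPM (6243 to 6430) in small intestinal SMCs. In SEMFs it stood at 1426 CPM (1399 to 1453) in the colon and 2017 CPM (1983 to 2052) in the small intestine. Acta2 was thus present in both cell types of both libraries, with at least 1 UMI in 100% and 99.1% of SMCs and in 81.2% and 95.7% of SEMFs. Actg2, the gamma actin typical of visceral muscle, stood at 1572 CPM (1485 to 1663) and 727 CPM (696 to 760) in SMCs, but at 2.96 CPM (1.85 to 4.48) and 6.59 CPM (4.77 to 8.88) in SEMFs. Of the UMIs of these 2 actins together, Actg2 gave 14.03% (13.3% to 14.8%) in colon SMCs and 10.3% (9.88% to 10.7%) in small intestinal SMCs. The same share was 0.207% (0.130% to 0.313%) in colon SEMFs and 0.326% (0.236% to 0.438%) in small intestinal SEMFs. A share of several percent was not particular to SMCs, although the level of Actg2 itself was low in the labels that follow. Trophocytes stood at 7.33% (4.53% to 11.1%) and 6.36% (3.81% to 9.87%), from 20 and 18 Actg2 UMIs (3.14 and 1.20 CPM). CD81- FBs stood at 1.84% (1.26% to 2.61%) and 3.03% (2.64% to 3.46%), from 31 and 215 Actg2 UMIs (1.25 and 10.7 CPM). Small intestinal LECs stood at 15.2%, and at 11.0% without the cell with the most Actg2 UMIs. The 2 genes are paralogs with nearly identical coding sequence, and reads that fit both could be missing from either count.

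The thick filament genes were high in SMCs and reached SEMFs to unequal degrees. Myh11, the smooth muscle myosin heavy chain, stood at 2894 CPM (2775 to 3017) in colon SMCs and 1554 CPM (1509 to 1601) in small intestinal SMCs. In SEMFs it stood at 76.4 CPM (70.2 to 82.9) in the colon and 245 CPM (233 to 258) in the small intestine, with 27.1% and 63.7% of cells positive. After thinning to 1500 UMIs the shares were 8.24% and 28.6%. Colon SEMFs thus had the lower Myh11 level and share. Myl9, a regulatory light chain, stood at 2346 CPM (2240 to 2457) and 1590 CPM (1544 to 1638) in SMCs and at 459 CPM (444 to 475) and 800 CPM (778 to 822) in SEMFs, again colon first. Its positive share in SEMFs was 76.2% in the colon and 91.9% in the small intestine.

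Among the actin-binding genes, Tagln was shared with SEMFs and Cnn1 and Lmod1 were not. Tagln, transgelin, stood at 7086 CPM (6899 to 7276) in colon SMCs and 5616 CPM (5528 to 5704) in small intestinal SMCs, and at 1120 CPM (1096 to 1144) and 2605 CPM (2566 to 2644) in SEMFs. It was found in 64.3% of colon SEMFs and 97.2% of small intestinal SEMFs. Cnn1, calponin 1, which binds actin and slows the myosin motor, stood at 864 CPM (799 to 932) and 397 CPM (374 to 421) in SMCs. In SEMFs it was represented by 15 UMIs in 5 of 1105 colon cells and 6 UMIs in 6 of 1109 small intestinal cells. Lmod1, leiomodin 1, which nucleates actin filaments, stood at 690 CPM (633 to 751) and 265 CPM (247 to 285) in SMCs. Its SEMF counts were 8 UMIs in 3 colon cells and 10 UMIs in 9 small intestinal cells. In the colon a single SEMF held 6 of the 8 Lmod1 UMIs, and the most in 1 cell for Cnn1 was 6 of the 15. Without those cells the levels were 0.270 CPM for Lmod1 and 1.21 CPM for Cnn1, in place of 1.08 and 2.02 CPM.

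The anchoring genes differed from each other, with Synpo2 next highest in SEMFs and Des next highest in CD81- FBs. Synpo2, synaptopodin 2, an actin-bundling protein of dense bodies, stood at 268 CPM (233 to 307) and 288 CPM (269 to 309) in SMCs and at 92.9 CPM (86.1 to 100.1) and 120 CPM (112 to 129) in SEMFs. The annotated genes Gm43283, Gm43287 and Gm43288 overlap Synpo2 on its own strand, so reads of these genes and of Synpo2 may not be told apart. Des, desmin, the muscle intermediate filament protein, stood at 139 CPM (114 to 167) and 178 CPM (163 to 194) in SMCs, where 36.8% and 39.5% of cells were positive. In colon SEMFs Des stood at 1.34 CPM (0.645 to 2.47), and in small intestinal SEMFs at 21.3 CPM (17.9 to 25.2). In both libraries CD81- FBs held more Des than SEMFs, at 36.4 CPM (34.1 to 38.8) in the colon and 25.7 CPM (23.6 to 28.1) in the small intestine, although the intervals overlapped in the small intestine. Colon trophocytes (22.5 CPM) and BECs (18.5 CPM, from 5 UMIs) also held Des.

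Free RNA in droplets can place a UMI in a cell that does not express the gene, so shares were set beside LECs, which should lack these genes. The median depth was 6345 UMIs per SEMF and 4545 per LEC in the colon, and 5510 and 4118 in the small intestine. In colon SEMFs the positive share was 1.27% for Actg2, 0.452% for Cnn1, 0.814% for Des and 0.271% for Lmod1. In colon LECs the shares were 0.922% (0.112% to 3.29%), 0.461% (0.0117% to 2.54%), 1.38% (0.286% to 3.99%) and 0 of 217 cells, an upper limit of 1.69%. The colon SEMF shares of these 4 genes lay within those LEC intervals, which rest on 217 cells and are wide, so a difference from LECs was not detectable at this depth. The Cnn1 and Lmod1 UMIs of colon SEMFs were held by 5 and 3 cells. In the small intestine, Cnn1 at 0.541% and Lmod1 at 0.812% of SEMFs had intervals that overlapped LECs at 0.520% and 0.560%. Actg2 at 3.16% (2.21% to 4.36%) and Des at 9.38% (7.73% to 11.2%) of SEMFs were above LECs at 0.761% (0.459% to 1.18%) and 0.520% (0.277% to 0.888%). With each cell thinned to 1500 UMIs, Actg2 was found in 0.729% (0.315% to 1.43%) of small intestinal SEMFs and 0.368% (0.169% to 0.698%) of LECs, so these intervals overlapped at equal depth. Des was found in 2.92% (2.00% to 4.09%) and 0.164% (0.0446% to 0.419%), which did not overlap.

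Small intestinal LECs also held a few cells with many of these UMIs. Of their 612 Acta2 UMIs, 151 were in 1 cell, and 1 cell held 53 of 110 Actg2 UMIs. After thinning, 4 of 2443 LECs had at least 6 of the 9 genes. Without that cell LEC Actg2 was 5.09 CPM in place of 9.81 CPM. The CPM of LECs for these genes in that library therefore rests largely on few cells, and the share of positive cells is the measure used for background.

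The question of how far SMCs stand above SEMFs was answered by the log2 ratio of CPM within each library. In the colon all 9 genes were more than 2-fold higher in SMCs, where 7.42% of 11997 genes with at least 20 UMIs in both labels together were. In the small intestine 8 of 9 passed 2-fold, against 9.03% of 12418 genes, with Myl9 just short at 0.99 (0.93 to 1.05). The median over the 9 genes was 5.24 in the colon and 2.66 in the small intestine, and that over all genes −0.15 and −0.18. The 4 largest colon ratios were 9.33 for Lmod1 (8.34 to 10.54), 9.05 for Actg2 (8.45 to 9.73), 8.74 for Cnn1 (8.01 to 9.59) and 6.69 for Des (5.75 to 7.79). Myh11 followed at 5.24 (5.11 to 5.38), and Acta2 at 2.76, Tagln at 2.66, Myl9 at 2.35 and Synpo2 at 1.53 were the smallest. Without the SEMF and the SMC with the most Lmod1 UMIs, the colon Lmod1 ratio was 11.30.

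The small intestinal ratios were smaller for 8 of the 9 genes. Cnn1 stood at 8.75 (7.63 to 10.20), much as in the colon, Lmod1 at 7.44 (6.55 to 8.50) and Actg2 at 6.79 (6.35 to 7.26). Des, at 3.06 (2.79 to 3.34), and Myh11, at 2.66 (2.58 to 2.75), were the genes whose ratios lay furthest below those of the colon. Acta2 stood at 1.65 (1.62 to 1.68), Synpo2 at 1.26 (1.12 to 1.41) and Tagln at 1.11 (1.08 to 1.14). The intervals of the libraries did not overlap for Acta2, Actg2, Myh11, Tagln, Myl9 and Des, and overlapped for Cnn1, Synpo2 and Lmod1. Without the highest-scoring 6% of cells in a doublet screen, Lmod1 moved to 8.72 in the small intestine and to 11.39 in the colon, and colon Actg2 to 9.91.

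**Figure D2:**
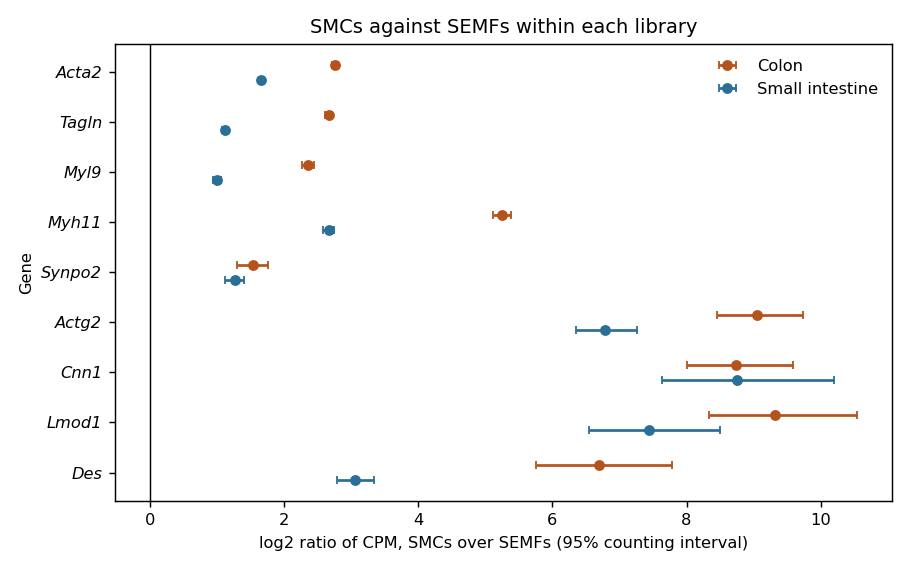
Log2 ratio of CPM in SMCs over SEMFs for each gene, colon in orange and small intestine in blue, with bars for the 95% counting interval. All points lie right of 0, the lower 4 genes lie further out than the others in the colon (6.69 to 9.33), and the small intestine lies left of the colon except for Cnn1.

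The genes were then counted within single cells, each thinned to 1500 UMIs so that depth was equal. The median number of the 9 genes detected was 6 in colon SMCs and 5 in small intestinal SMCs, against 2 and 3 in SEMFs and 0 in CD81- FBs and LECs. At least 6 genes were found in 76.8% (68.4% to 83.9%) of 125 colon SMCs and 39.4% (35.0% to 44.0%) of 464 small intestinal SMCs, and in 1 SEMF of each library. Every colon SMC had at least 1 of the genes, and 4 small intestinal SMCs had none. At least 1 of Actg2, Cnn1, Lmod1 and Des was found in 92.8% (86.8% to 96.7%) of colon SMCs and 66.0% (61.4% to 70.3%) of small intestinal SMCs. In SEMFs that share was 0.452% (0.147% to 1.05%) and 3.83% (2.77% to 5.14%), and in LECs 1.38% and 0.696%. These 4 genes were grouped after their low SEMF levels were seen, so the low SEMF shares follow from that choice and are no separate result.

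**Figure D3:**
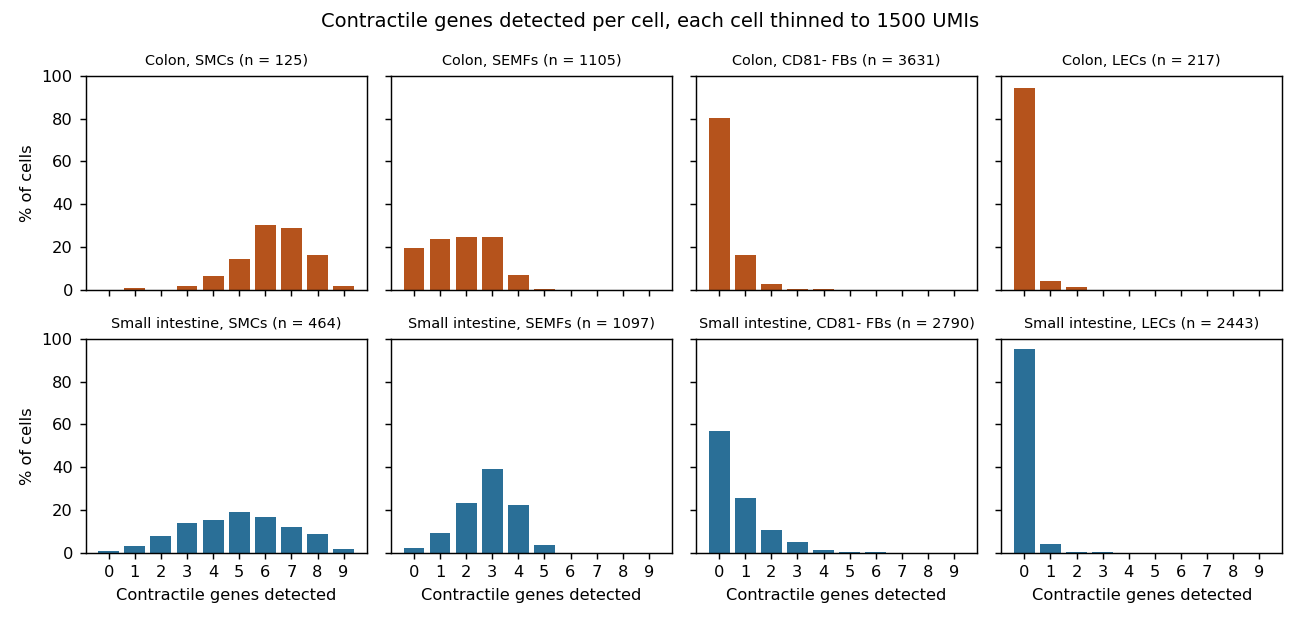
Percent of cells (vertical axis) by the number of the 9 genes detected (horizontal axis) after thinning to 1500 UMIs, for 4 labels of the colon (top) and small intestine (bottom). SMCs centre on 6 and 5 genes, SEMFs on 2 and 3, and most CD81- FBs and LECs have none.

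Between tissues, 5 of the 9 genes went in opposite directions in SMCs and in SEMFs with both intervals clear of 0. These were Acta2, Actg2, Myh11, Tagln and Myl9, and the SEMF ratio of Actg2 rests on 22 and 43 UMIs. In SMCs, 7 of 9 genes were higher in the colon, and Lmod1 at 1.38 (1.22 to 1.54), Cnn1 at 1.12 (0.98 to 1.26) and Actg2 at 1.11 (1.01 to 1.22) passed 2-fold, as 5.03% of 10467 genes did. Myh11 at 0.90 (0.82 to 0.97), Acta2 at 0.60 (0.56 to 0.64), Myl9 at 0.56 (0.48 to 0.64) and Tagln at 0.34 (0.29 to 0.38) were higher by less. Des at −0.36 (−0.68 to −0.06) was lower in the colon, and the interval of Synpo2 at −0.11 (−0.33 to 0.12) spanned 0. The median of the 9 was 0.60 and that of all genes −0.30. Relative to that all-gene median Synpo2 turned to 0.20 and Des stood at −0.06, so Des in SMCs differed little from genes in general.

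In SEMFs the colon was the lower tissue for most of the genes. More than 2-fold lower were Des at −3.99 (−5.08 to −3.06), Myh11 at −1.68 (−1.82 to −1.54), Tagln at −1.22 (−1.26 to −1.18) and Actg2 at −1.16 (−1.97 to −0.38), which is 4 of the 8 genes with at least 20 UMIs, against 16.6% of 12948 genes. Myl9 at −0.80 (−0.86 to −0.74), Acta2 at −0.50 (−0.54 to −0.46) and Synpo2 at −0.37 (−0.52 to −0.22) were lower by less. The intervals of Cnn1 at 1.13 (−0.31 to 2.79) and Lmod1 at −0.51 (−2.05 to 0.98), both with few UMIs, spanned 0. By its value Cnn1 was the 1 gene of the 9 more than 2-fold higher in colon SEMFs, where 8.41% of all genes were. The median of the 9 was −0.80 and that of all genes −0.31. Relative to that all-gene median Myl9 stood at −0.49, Acta2 at −0.19 and Synpo2 at −0.06. Acta2, Actg2, Myh11, Tagln and Myl9 thus had intervals on opposite sides of 0 in the 2 labels. These 5 directions held in every alternative run. For Actg2 the SEMF ratio compared 22 with 43 UMIs, and its SEMF shares overlapped those of LECs after thinning in each library. Actg2 in LECs was also lower for the colon library, at 1.88 against 9.81 CPM (2 and 110 UMIs). Without the top cell of each it was 0.943 against 5.09 CPM, with overlapping intervals. The part of background in the SEMF ratio of Actg2 was not tested. Des was lower in the colon in SMCs and SEMFs, in SMCs by about as much as the median gene. Synpo2 and Cnn1 each had the same sign in both labels. Lmod1 had opposite signs, but its SEMF interval spanned 0.

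**Figure D4:**
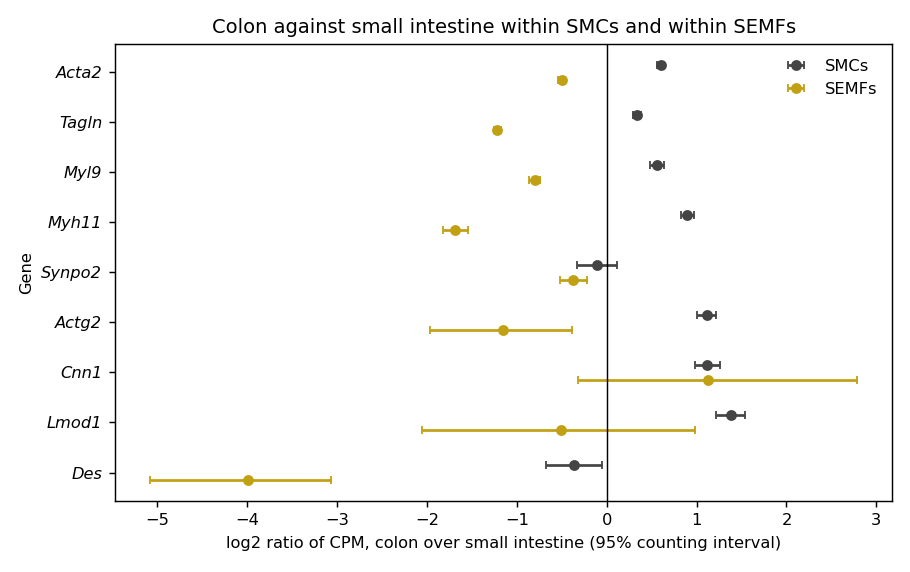
Log2 ratio of CPM in the colon over the small intestine for each gene, within SMCs (dark grey) and within SEMFs (yellow), with bars for the 95% counting interval. For Acta2, Tagln, Myl9, Myh11 and Actg2 the SMC points lie right of 0 and the SEMF points left of it.

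CD81- FBs, the largest fibroblast label of both libraries, were lower in the colon by more than 2-fold for 6 of the 9 genes, against 12.1% of 14907 genes. Tagln stood at 28.5 CPM in colon CD81- FBs and 253 CPM in small intestinal ones, and Acta2 at 66.8 CPM and 341 CPM. Cnn1 was more than 2-fold higher in the colon, as were 9.71% of all genes, at 3.44 CPM (2.75 to 4.25) against 0.992 CPM (0.606 to 1.53). Des was also higher in the colon, at a log2 ratio of 0.50 (0.34 to 0.66). Within each library SEMFs stood above CD81- FBs by more than 2-fold for 6 genes in the colon (7.76% of 14453 genes) and 4 in the small intestine (9.41% of 14211 genes). These were Tagln at 5.30 and 3.37, Acta2 at 4.42 and 2.56, Myl9 at 4.45 and 2.95, and Myh11 at 3.88 and 3.20, and in the colon also Synpo2 at 1.39 and Actg2 at 1.24. More than 2-fold lower in SEMFs were Des and Lmod1 in the colon (10.5% of all genes) and Lmod1 in the small intestine (11.1% of all genes), with Lmod1 at −1.52 (−2.78 to −0.46) and −2.05 (−3.14 to −1.12). The colon ratio of Actg2 compared 22 with 31 UMIs, and both shares lay within the LEC interval. Colon SEMFs were lower than CD81- FBs for Des, at −4.76 (−5.82 to −3.87), with 0.814% of SEMFs and 18.2% of CD81- FBs positive. In small intestinal SEMFs the Des ratio to CD81- FBs was −0.27 (−0.55 to −0.00).

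In trophocytes and BECs none of the 9 genes passed 39.7 CPM in either library. Colon trophocytes held 39.7 CPM of Acta2, of which 106 of 253 UMIs were in 1 cell, and 23.1 CPM without it. Their Tagln level of 31.3 CPM was 17.2 CPM without its top cell, whereas Myl9 (39.6 CPM) and Synpo2 (23.4 CPM) stood at 37.6 and 22.3 CPM. Colon LECs held 89.2 CPM of Acta2, of which 47 of 95 UMIs were in 1 cell, and 45.6 CPM without it.

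Cells of the SMC label were described by how many of the 9 genes they held after thinning. In the small intestine 281 cells held 0 to 5 genes, 133 held 6 or 7, and 50 held 8 or 9, and in the colon these counts were 29, 74 and 22. The count is a range and not a cell type: 88 small intestinal SMCs held 5 genes and 77 held 6. Hhip went along this range from 407 to 1847 and 3327 CPM in the small intestine and from 1277 to 2876 and 3185 CPM in the colon. Tpm2, a muscle tropomyosin, went from 713 to 2194 and 3240 CPM in the small intestine and from 2402 to 4033 and 5505 CPM in the colon.

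Fibroblast and SEMF transcripts followed the opposite order for some genes and not for others. Dcn, the matrix proteoglycan decorin, went from 9451 to 4511 and 2587 CPM in the small intestine and from 2302 to 1397 and 1000 CPM in the colon. In the small intestine Col1a1 went from 1759 to 1020 and 610 CPM and Col3a1 from 3087 to 2228 and 2118 CPM. In the colon these collagen genes went from 691 to 563 and 404 CPM and from 3245 to 2782 and 2135 CPM. Pdgfra, the receptor used to define SEMFs, went from 162 to 80.5 and 14.4 CPM in the small intestine, and from 177 to 25.4 CPM and 0 UMIs in the colon. The SEMF markers Bmp5 and Sox6 did not follow it in the small intestine, at 241, 276 and 231 CPM and at 17.0, 47.5 and 21.7 CPM. In the colon they declined, from 570 to 298 and 163 CPM and from 247 to 83.1 and 14.2 CPM. Adamdec1, a gut fibroblast protease, stayed high in the small intestine, at 9659, 8551 and 8155 CPM, and was 1645, 956 and 1554 CPM in the colon. Myocd, which encodes myocardin, went from 312 to 484 and 668 CPM in the small intestine but stood at 252, 249 and 149 CPM in the colon. The median depth of the groups was 5860, 5361 and 5802 UMIs per cell in the small intestine and 5663, 5251 and 6784 in the colon. The cells were grouped by the genes under study, so these values describe the label and no more.

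**Figure D5:**
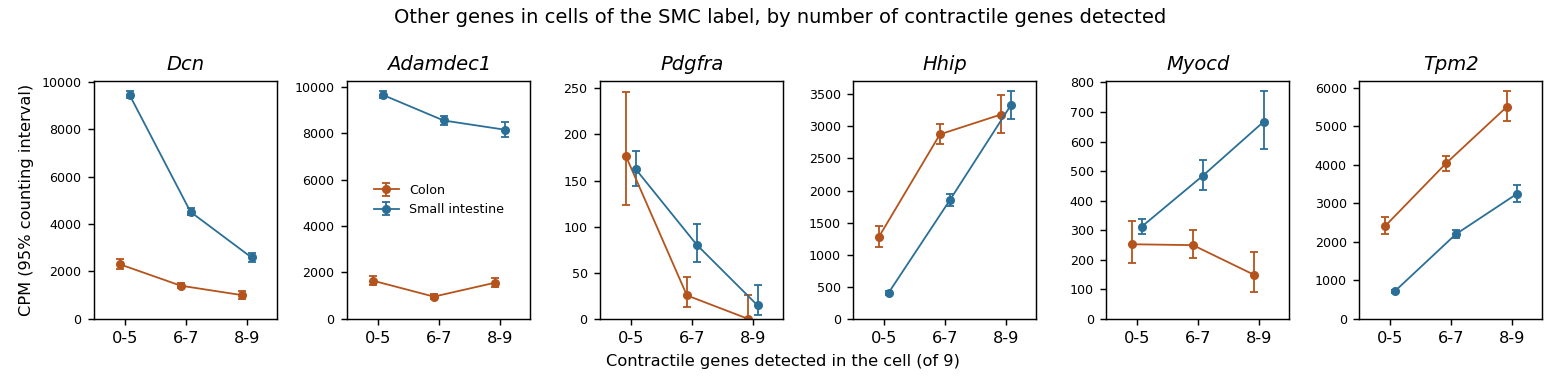
CPM of 6 other genes (1 panel each, vertical axis with its own scale from 0) in cells of the SMC label grouped by how many of the 9 genes were detected (horizontal axis), colon in orange and small intestine in blue, with 95% counting intervals. Hhip and Tpm2 climb in both libraries, Dcn and Pdgfra decline, and small intestinal Adamdec1 stays at or above 8155 CPM.

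Other genes of contraction were taken from lists made for this description. Of 20 further genes of the filaments and their anchors, 16 of 19 with enough UMIs were more than 2-fold higher in SMCs than in SEMFs in the colon (7.42% of all genes) and 12 of 18 in the small intestine (9.03% of all genes). None of these was more than 2-fold lower, and the medians were 1.88 and 1.13. In the colon Tpm2 stood at 3883 CPM in SMCs and 650 CPM in SEMFs, and in the small intestine at 1364 and 473 CPM. Flna, filamin A, which crosslinks actin, had log2 ratios of 2.51 (2.40 to 2.63) and 1.08 (0.99 to 1.16). Nexn, nexilin, an actin-binding protein, had ratios of 2.12 and 1.31. Itga8, an integrin subunit, had 202 CPM in colon SMCs against 1.48 CPM in SEMFs, and 25.7 against 3.37 CPM in the other library.

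Of the genes that set calcium entry and force, 7 of 15 were more than 2-fold higher in SMCs in the colon (7.42% of all genes), and in the small intestine 8 of 19 were higher (9.03% of all genes) and 1 was lower (11.9% of all genes). Kcnma1, the pore of the large-conductance potassium channel that limits contraction, stood at 526 CPM in colon SMCs against 3.09 CPM in SEMFs, and at 603 against 2.76 CPM in the other library. Its beta subunit Kcnmb1 had log2 ratios of 3.53 (3.02 to 4.05) and 0.96 (0.64 to 1.27). Cacna1c, the pore of the L-type calcium channel, had ratios of 4.03 (3.68 to 4.38) and 4.12 (3.86 to 4.39), similar in both libraries. Ppp1r12b, a targeting subunit of myosin phosphatase, had ratios of 2.21 and 0.67.

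Of 7 listed regulators of the serum response factor pathway, 2 were more than 2-fold higher and 1 lower in colon SMCs, and 1 was higher in the small intestine. With all-gene shares of 7.42% higher and 16.0% lower in the colon and 9.03% higher in the small intestine, a count of 1 in so short a list is near the background. Myocd was among the most separated genes, with 232 CPM in colon SMCs against 2 UMIs in SEMFs (log2 ratio 9.75, 7.88 to 12.81) and 394 against 2.91 CPM in the small intestine. Srf itself, serum response factor, was sparse, at 25.9 and 17.1 CPM in SMCs and 11.2 and 10.9 CPM in SEMFs. Fhl2, a cofactor of that pathway, was lower in SMCs, at −1.72 in the colon and −0.26 in the small intestine. Tead1, a transcription factor of smooth muscle and other genes, had ratios of 0.04 (−0.21 to 0.29) and −0.64 (−0.77 to −0.52).

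The nonmuscle counterparts of the contractile genes were mixed. Of 12, none was more than 2-fold higher and 6 were more than 2-fold lower in colon SMCs, where 16.0% of all genes were lower, and in the small intestine 1 was higher and 1 lower (11.9% of all genes lower). Myh9 and Myh10, nonmuscle myosin heavy chains, had colon ratios of −1.66 (−1.93 to −1.39) and −1.74 (−2.30 to −1.23) and small intestinal ratios of −0.65 and −1.21. Tagln2, the broadly expressed paralog of Tagln, had ratios of −1.64 (−1.86 to −1.43) and −0.18 (−0.27 to −0.09). The summed level of the whole list was higher in colon SMCs, at 11685 CPM against 9703 CPM in SEMFs, with Actb, beta actin, at 7299 and 4040 CPM. Vim, the intermediate filament protein vimentin, was higher in SMCs, at 0.30 (0.21 to 0.38) and 1.26 (1.20 to 1.32).

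Pericyte markers were examined because pericytes share several of the 9 genes. In SMCs they summed to 734 CPM in the colon, where Cox4i2, Ndufa4l2 and Notch3 were at 0, and to 1404 CPM in the small intestine, against 275 and 1374 CPM in SEMFs. Rgs5 made up most of it, at 500 CPM in colon SMCs and 1188 CPM in small intestinal SMCs, and CD81- FBs of the small intestine also held 778 CPM. Kcnj8 and Abcc9, subunits of a potassium channel of pericytes, were higher in small intestinal SEMFs, at 392 and 585 CPM, than in SMCs, at 10.3 CPM each. Notch3 stood at 7.48 CPM in small intestinal SMCs. The part of pericytes in the SMC values was not tested.

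The genes most like the 9 in level across the 12 combinations of label and library were Cap2, Kcnmb1, Csrp1, Fbxl22, Klhl23, Flna, Myl6 and Tpm1, with Pearson r from 0.99 to 0.96 between log2(CPM + 10) of the gene and the mean of the 9, among 11853 genes. The 9 genes were left out of this ranking. For Acta2 alone, where Tagln and Myl9 among the 9 had r of 0.99 and 0.98, the closest other genes were Csrp1, Tpm1, Mrvi1, Glipr1 and Atpif1, with r from 0.96 to 0.95. Cap2 stood at 119 CPM in colon SMCs, 95.9 CPM in small intestinal SMCs and 26.1 CPM or less elsewhere. Mrvi1 was shared with SEMFs, at 132 and 120 CPM in the colon and 151 and 202 CPM in the small intestine. Among the 9 genes themselves, r ran from 0.62 for Tagln with Des to 0.99 for Cnn1 with Lmod1. The 12 points come from 2 libraries and share their depth and free RNA, so these are descriptions with no test.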

How the data were processed

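For each library the authors deposited raw UMI counts per gene and cell, natural log values and a cell type label per cell. Per the submitters' processing notes, Cell Ranger 7.1.0, Seurat 4 and mm10 were used. Filters on cells, any removal of doublets and the naming of cells are not given in the sources used here. The deposited natural log values matched, within 6.2e-15, a log transform of 1 plus UMIs scaled to a fixed cell total, and served as an alternative. UMIs were summed per label; the colon's CapECs, ArtECs and VenECs were pooled as BECs. A gene was counted past 2-fold with a log2 ratio beyond 1 and at least 20 UMIs in both groups together. A count of 0 gave a bound from 3 counts. Shares were also taken after thinning each cell to 1500 UMIs (seed 42), which left out 4 small intestinal SMCs, 12 SEMFs and 55 LECs and no colon cell of these labels. UMIs of 3′ libraries were not divided by gene length. Tagln, Des, Synpo2 and Lmod1 overlap annotated genes on the opposite strand (Pcsk7 for Tagln), and whether counting used strand is not given in the sources used here. The ratio intervals were run on simulated Poisson counts, which checks the calculation only. Such counts lack the clumping of UMIs in single cells, so the run does not show that the intervals cover the spread of these data. Python 3.11.15, scipy 1.17.1, pandas 2.3.3 and scanpy 1.11.5 were used, with gene positions from GENCODE (GRCm38).

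The genes and lists were chosen with earlier results of these data known. Named were the 9 genes, up to 4 genes per list with the largest difference of log2(CPM + 10) between SMCs and SEMFs in either library, the 8 genes most correlated with the mean of the 9, and the 5 most correlated with Acta2. Dcn and Bmp5, in the grouping of SMC-label cells, were named outside that rule after their values were seen. So were the pericyte genes Notch3, Cox4i2 and Ndufa4l2, the fibroblast gene Pi16 and the nonmuscle gene Actb. Doublets were not removed: Scrublet marked 1 of 6018 colon cells (0.0166%), too few to be used, and 85 of 9359 small intestinal cells (0.908%).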

Additional observations from a re-analysis of the deposited data

Results flagged for a closer look

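In 5 genes the colon to small intestine ratio had opposite signs in SMCs and in SEMFs, with both counting intervals clear of 0. For Actg2 the SEMF ratio compared 22 with 43 UMIs, with shares of positive cells that overlapped LECs at equal depth. The log2 ratio in SMCs minus that in SEMFs was 1.10 for Acta2, 2.27 for Actg2, 2.58 for Myh11, 1.55 for Tagln and 1.36 for Myl9. With 1 library per tissue the difference was not tested. Beside it stand the fibroblast markers of the SMC label, which summed to 7187 CPM in colon SMCs and to 22880 CPM in small intestinal SMCs. Lymphatic markers of the same cells summed to 51.8 and 352 CPM. In SEMFs they summed to 249 and 394 CPM and in CD81- FBs to 249 and 298 CPM, so the small intestinal sum was not particular to SMCs. Within SMCs, 5 of the 5 lymphatic markers tested were more than 2-fold lower in the colon, as were 20.7% of all genes. In SEMFs the pericyte markers summed to 275 CPM for the colon library against 1374 CPM for the other. Of 7 tested, 4 were more than 2-fold lower in the colon, as were 16.6% of all genes. Kcnj8 and Abcc9 made up most of that sum in the small intestine. Kcnj8 was found in 83.2% of small intestinal SEMFs with 0 to 2 of the genes detected and 82.0% of those with 3 to 5. Notch3 stood at 2.60 and 0.238 CPM in the same cells. The part of the fibroblast, lymphatic and pericyte markers in the result was not tested. In small intestinal SMCs with 8 or 9 of the genes detected, Dcn stood at 2587 CPM.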

How the results depend on the processing

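All 9 genes were highest in SMCs in both libraries under every alternative, and no gene ratio called by its interval reversed. Of 306 recomputed gene ratios, 199 stayed within the interval of the main value and 107 moved. The sign was kept in all alternatives for 9 of 9 genes in both SMC over SEMF comparisons, and for 8 of 9 in each tissue comparison, the exceptions being Synpo2 in SMCs and Lmod1 in SEMFs. The medians that moved are given in the order SMC over SEMF in the colon and the small intestine, then colon over small intestine in SMCs and SEMFs. Means of the natural log values gave 2.80, 1.39, 0.99 and −0.14. Ratios relative to the median gene gave 5.39, 2.85, 0.91 and −0.49. Dropping the top 6% of cells by doublet score gave 5.43 in the colon, 0.66 in SMCs and −1.25 in SEMFs. Using Y-linked but not Xist-bearing colon cells gave 4.98 in the colon, 0.46 in SMCs and −1.38 in SEMFs, and using the Xist-bearing ones without Y-linked UMIs gave 0.73 in SMCs and −0.57 in SEMFs. In SEMFs alone, equal weight per cell gave −0.91, totals without mitochondrial, ribosomal protein and the 9 genes gave −0.72, and leaving out the top cell of each gene gave −1.23. The cause of these shifts was not tested. Shares of positive cells in SMCs and SEMFs depend on depth: of 36, 32 left their interval with cells thinned to 1500 UMIs, 28 at 3000 UMIs and 30 when at least 2 UMIs were required. Leaving out the top cell of a gene in a label, an alternative chosen after seeing the data, moved levels by over 1.5 times in LECs and BECs for several genes, for Acta2 and Tagln in colon trophocytes, and for Cnn1 and Lmod1 in colon SEMFs. Leaving out a replicate could not be run with 1 library per tissue. No paired analysis was possible because each tissue has a single library. SEMF values of Actg2, Cnn1, Lmod1 and colon Des rest on 6 to 43 UMIs, which limits their ratios.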

Other observations

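In the colon, 8 cells carried 1 of the pericyte labels ecmPCs, myPCs and endoPCs, too few for the comparisons above. Together they held 86 Acta2 UMIs (2480 CPM, 1984 to 3063), 63 Tagln UMIs (1817 CPM) and 12 Actg2 UMIs (346 CPM, 179 to 604). Actg2 gave 12.2% (6.49% to 20.4%) of their Acta2 and Actg2 UMIs. The 2 cells labelled myPCs held all 12 Actg2 UMIs, and their Acta2 level was 9081 CPM (7038 to 11533). The 5 cells labelled ecmPCs had 791 CPM of Acta2 and 458 CPM of Myh11, with no Actg2 or Cnn1 UMI.

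The colon SMC levels were also read by sex-linked UMIs. Des stood at 162 CPM (120 to 214) in the 45 colon SMCs with Y-linked but no Xist UMIs and at 88.1 CPM (53.8 to 136) in the 37 with Xist and no Y-linked UMIs, with overlapping intervals. Myh11 stood at 2688 CPM (2506 to 2879) and 3331 CPM (3098 to 3577), and Acta2 at 8716 CPM (8386 to 9056) and 9728 CPM (9327 to 10143).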
